A study of Mus musculus with 27 samples.

Results

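The transcripts of 50 genes of the synaptic vesicle and its release machinery were followed across 15 mouse hippocampus libraries. The genes were chosen by name from the deposited gene expression table, which lists 51826 features. All 50 were in the table, and all 50 were among the 19969 genes that passed the filter on low counts.

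A synaptic vesicle is held in a reserve cluster by synapsins, docks at the active zone with the help of Rab3, RIM, Munc13, Bassoon and Piccolo, and fuses when its SNARE protein VAMP2 zippers with SNAP25 and syntaxin on the plasma membrane. Synaptotagmins sense the calcium that triggers fusion, complexins clamp and promote it, and NSF with its SNAP adaptors takes the spent SNARE complex apart. Dynamin, synaptojanin, endophilin, amphiphysin and AP180 then recover the membrane. In the hippocampus these proteins serve the glutamate synapses of granule and pyramidal neurons as well as the GABA synapses of interneurons.

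The samples were whole hippocampi of ICR mice, an outbred strain. They formed a design of surgery by treatment with 4 groups, which were ovariectomized (OVX) mice given xanthohumol (OVX Xmo, n = 4), OVX mice given saline (OVX saline, n = 4), sham-operated mice given xanthohumol (sham Xmo, n = 4) and sham-operated mice given saline (sham saline, n = 3). Xanthohumol is a prenylated flavonoid of hops, and ovariectomy removes the main source of circulating estrogen. No label gives age, dose or duration. Nothing states that the replicates were separate animals, so p-values measure only the spread between these samples.

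Library totals ran from 20848661 to 39140593 counts. The 3 sham saline libraries stood apart on average, as the plot of library shares shows. The protein genes of the mitochondrial genome held 14% ± 1.75 of library counts in OVX Xmo, 14.2% ± 1.94 in OVX saline, 16.2% ± 2.08 in sham Xmo and 25.8% ± 7.70 in sham saline (SD). Singly, sham saline 1 to 3 held 19.0%, 34.1% and 24.2%, and sham Xmo 1 held 19.2%, so sham saline 1 did not stand apart. The sham saline libraries are the reference of 3 of the 6 comparisons and enter the interaction, so their composition and the absence of both ovariectomy and xanthohumol cannot be told apart. They are not a term in the log2 fold changes of OVX Xmo against sham Xmo or against OVX saline. The SEs and p-values of these comparisons still rest on a spread estimated over all 4 groups. Neuronal markers of the dentate granule and pyramidal layers were present throughout, with summed levels of 491 to 675 and 373 to 669 scaled CPM. Scaled CPM are counts per 1e+06 counts, with the library size scaled by its TMM factor. No marker of the 11 cell and region lists fell below 4 counts in any library.

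**Figure D1:**
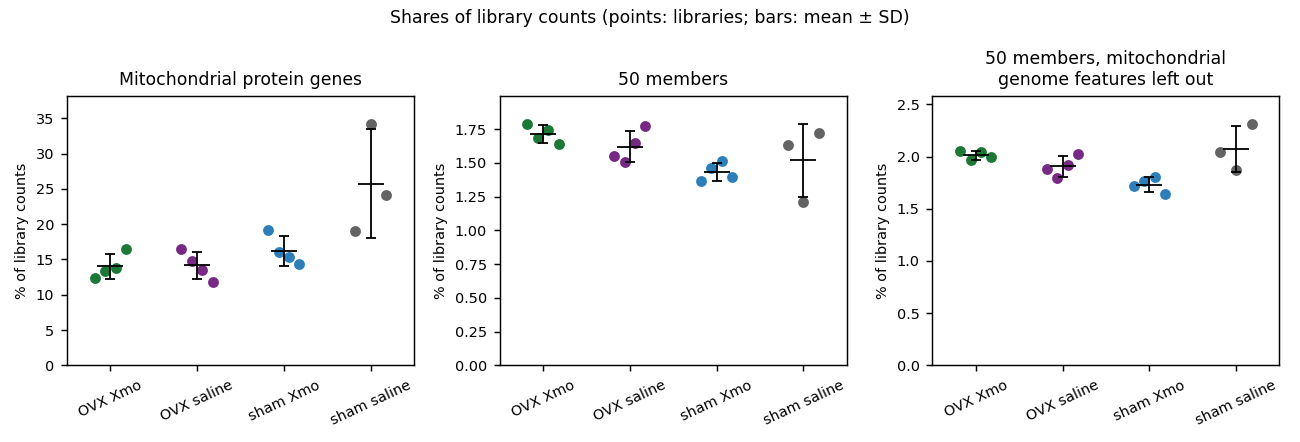
Percent of library counts (y axis) taken by the protein genes of the mitochondrial genome (left), by the 50 release genes (middle) and by the 50 release genes with mitochondrial genome features left out of the total (right). Points are libraries and bars are mean ± SD per group. The sham saline points are the highest on average on the left, and the 4 sham Xmo points (1.64 to 1.80%) lie below all OVX Xmo points (1.96 to 2.05%) on the right.

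The 50 genes together took 1.71% ± 0.0641 of all counts in OVX Xmo, 1.62% ± 0.117 in OVX saline, 1.43% ± 0.0667 in sham Xmo and 1.52% ± 0.273 in sham saline (SD). With mitochondrial genome features left out of the total, the shares were 2.01% ± 0.0430, 1.91% ± 0.0973, 1.73% ± 0.0693 and 2.07% ± 0.219 in the same order. On both scales each OVX Xmo library lay above each sham Xmo library. The sham saline libraries had the widest spread on both scales, and sham saline 2, which had the highest mitochondrial share (34.1%), had the lowest share of release gene counts (1.21%).

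Per transcript length, the SNARE protein Snap25 was the most abundant of the 50, at a mean of 1606 TPM, the authors' value per transcript length, over the 15 libraries, and it ranked above the next gene, Syt1, in 15 of 15 libraries. Syt1, the calcium sensor of fast release, averaged 631 TPM, Vamp2 554 TPM and the vesicle membrane protein Syp 479 TPM. These neighbours were not always in that order, since Syt1 exceeded Vamp2 in 11 of 15 libraries and Vamp2 exceeded Syp in 13 of 15. At the low end were Cplx3 (3.52 TPM), a complexin best known from retina, Doc2a (4.92 TPM), Sv2c (7.15 TPM), Syt2 (9.49 TPM) and Unc13c (10.6 TPM). The 5 SNARE genes summed to 2337 TPM and the 14 priming and active zone genes to 995 TPM.

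**Figure D2:**
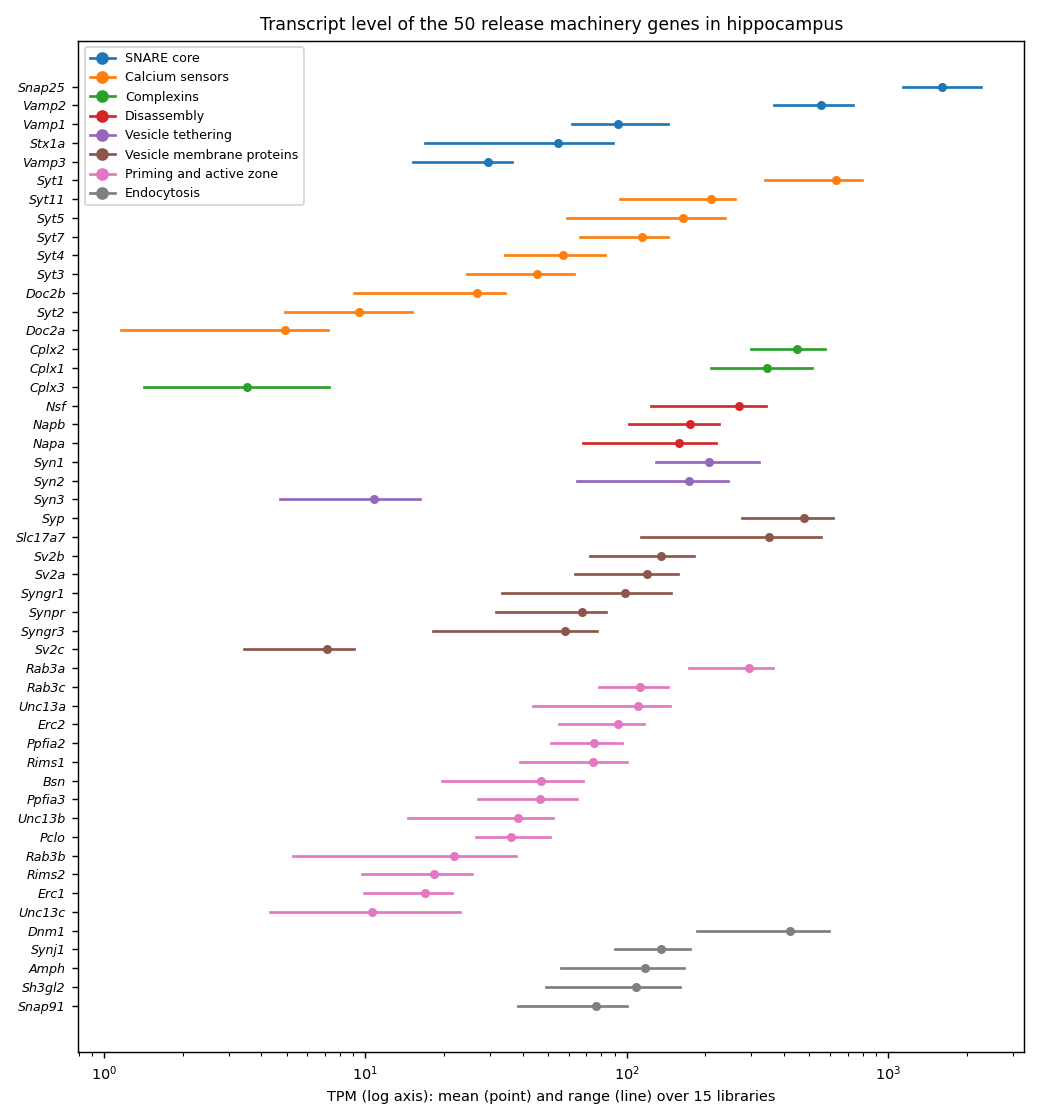
Mean TPM (point) and range over 15 libraries (line) of the 50 genes, on a log axis and grouped by role. Snap25 stands at the top with 1606 TPM and Cplx3 at the bottom with 3.52 TPM.

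The tests covered 6 comparisons, each with edgeR's quasi-likelihood test over all 19969 genes and a Benjamini-Hochberg adjusted p under 0.05 as the threshold. In OVX saline against sham saline, 5 of the 50 genes fell and 0 rose, where 2.59% of all genes fell and 3.65% rose, and 12 of the 50 had an unadjusted p under 0.05, where 24.7% of all genes did. In sham Xmo against sham saline, 6 fell and 0 rose, where 0.791% of all genes fell and 0.721% rose, and 19 of the 50 had an unadjusted p under 0.05, where 18.4% of all genes did. In the interaction, which subtracts the xanthohumol effect of sham mice from the one of OVX mice, 4 of the 50 were higher and 0 lower, where 0.27% of all genes were higher and 0.145% lower, and 21 of the 50 had an unadjusted p under 0.05, where 17.4% of all genes did. All calls lay in 6 genes, which were Syn1, Vamp2, Rab3a, Pclo, Synj1 and Syp. The tests use TMM-scaled counts, and the authors' TPM did not keep the order of group means. In TPM, sham saline had the highest mean of the 4 groups for Syn1 alone (244). Its Syp mean was the lowest, at 411 against 560 in OVX Xmo, 507 in OVX saline and 420 in sham Xmo. For Rab3a it was 269 against 346 in OVX Xmo and 301 in OVX saline. Differences in TPM were not tested.

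The remaining 3 comparisons called none of the 50 genes. In OVX Xmo against sham saline 1.19% of all genes passed, and 7 of the 50 had an unadjusted p under 0.05, where 18.9% of all genes did. DESeq2 called 3 of the 50 there, all lower in OVX Xmo (Vamp2, Syn1 and Pclo), where it called 3.09% of all genes with an adjusted p lower. There 26 of the 50 log2 fold changes were below 0, where 48.6% of all genes were, 2 genes lay below sham saline without overlap (Vamp2 and Pclo), where 6.28% of all genes did, and 1 lay above it (Syngr3), where 8.59% did. Between OVX Xmo and OVX saline 0% of all genes passed, and 1 of the 50 had an unadjusted p under 0.05, where 4.18% of all genes did. Between OVX Xmo and sham Xmo 0.01% of all genes passed, and 18 of the 50 had an unadjusted p under 0.05, where 10.2% of all genes did. DESeq2 called 0 of the 50 in both.

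The median log2 fold change of the 50 genes was −0.09 in OVX saline against sham saline, where that of all genes was 0.01. It was −0.25 in sham Xmo against sham saline, where that of all genes was 0.03. It was −0.01 in OVX Xmo against sham saline, 0.12 in OVX Xmo against OVX saline and 0.25 in OVX Xmo against sham Xmo, where the medians of all genes were 0.01, 0.00 and −0.02. In the interaction it was 0.39, where that of all genes was −0.02. The first 3 of these comparisons share the sham saline libraries, and the OVX Xmo and sham Xmo libraries are also used more than once, so these medians are not independent of each other. In whole tissue, fewer cells of a type and less RNA per cell cannot be told apart. The median of the 50 in OVX Xmo against sham saline was 0.08 without sham saline 3.

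**Figure D3:**
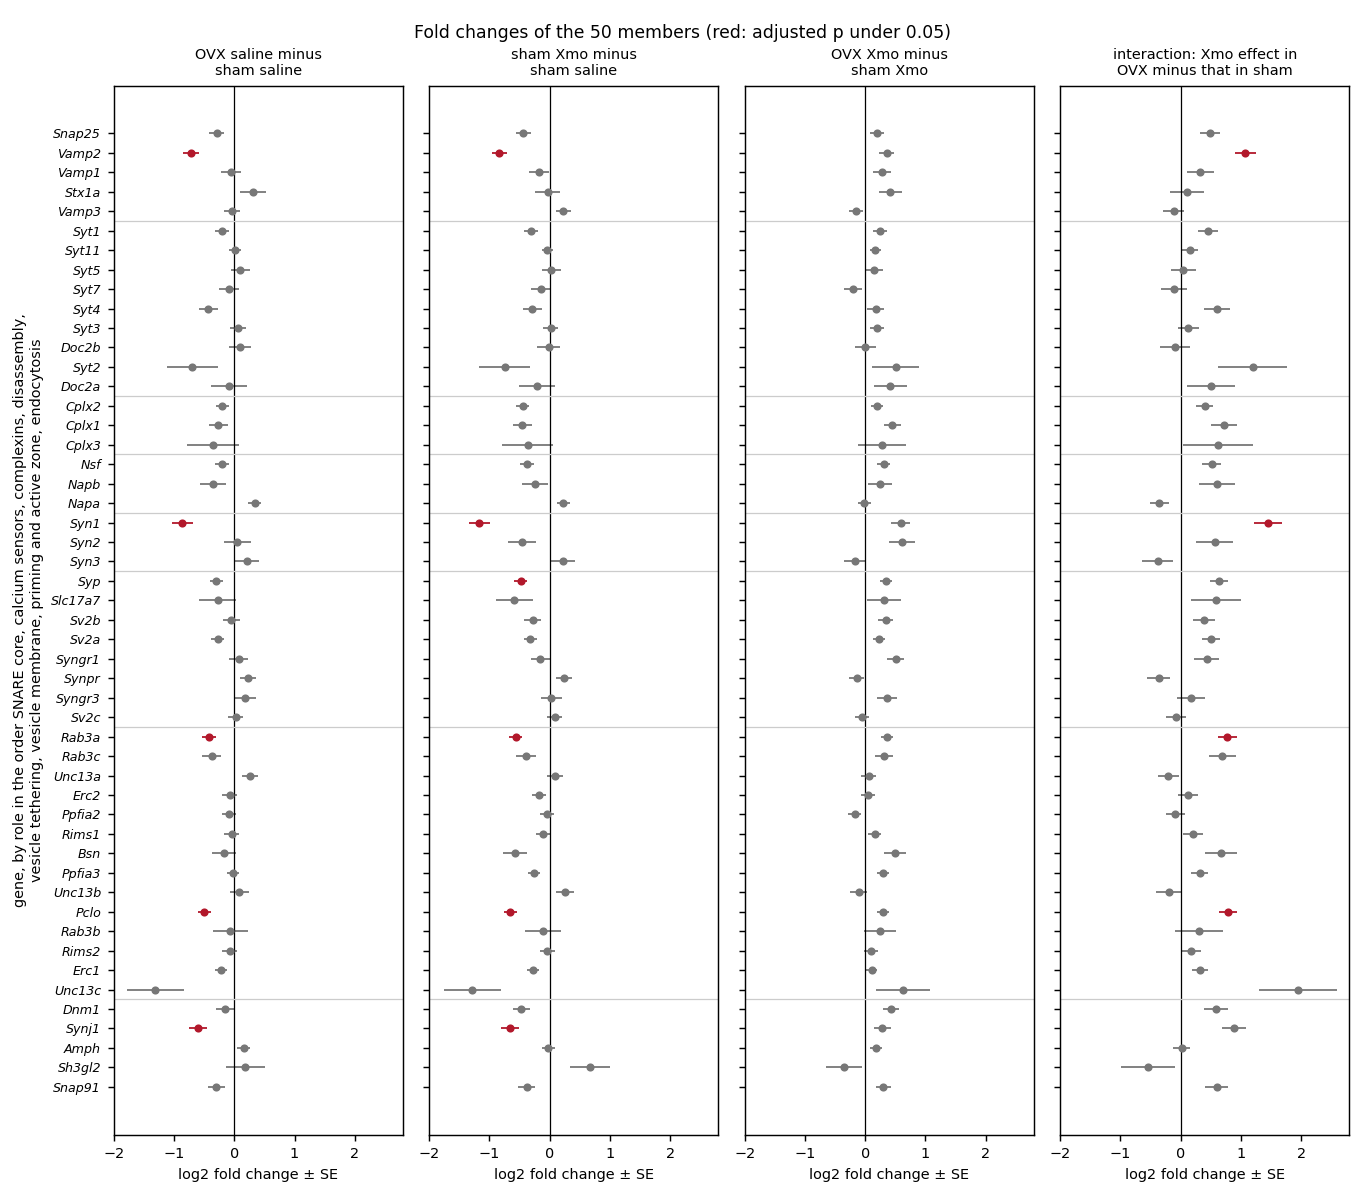
Log2 fold change ± SE (x axis) of each of the 50 genes, grouped by role from SNARE core to endocytosis, in OVX saline minus sham saline, sham Xmo minus sham saline, OVX Xmo minus sham Xmo and the interaction. Red marks an edgeR adjusted p under 0.05. Red points lie left of 0 in the first and second panels, right of 0 in the last, and are absent from the third.

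Among the SNARE core genes, Vamp2, the vesicle-side SNARE of fast release (ENSMUSG00000020894, chr11:69088490-69092384, GRCm38.p6), had 702, 601, 775 and 702 scaled CPM in OVX Xmo 1 to 4. It had 560.2, 554, 648 and 600.5 scaled CPM in OVX saline 1 to 4, 547, 531, 543 and 553 in sham Xmo 1 to 4, and 857, 819 and 1236 in sham saline 1 to 3. All 3 sham saline values lay above those of the 12 other libraries, and sham saline 3 was the highest. Vamp2 fell by 0.72 on the log2 scale in OVX saline against sham saline (SE 0.13; edgeR adjusted p = 0.0138) and by 0.84 in sham Xmo against sham saline (SE 0.13; edgeR adjusted p = 0.0144). Its interaction was 1.07 (SE 0.18; edgeR adjusted p = 0.0304). Against sham saline, OVX Xmo had a log2 fold change of −0.48, which did not pass in edgeR (SE 0.13; adjusted p = 0.0729).

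None of the other 4 SNARE genes passed in any comparison. Snap25, the plasma membrane SNARE with 2 helices in the complex, averaged 1932 ± 114 scaled CPM in OVX Xmo, 1870.2 ± 266 in OVX saline, 1683 ± 138 in sham Xmo and 2284 ± 351 in sham saline (SD). All 4 sham Xmo values of Snap25 lay below the 3 sham saline values, and the log2 fold change was −0.44 (edgeR adjusted p = 0.0852). Vamp1, the paralog of Vamp2 that is prominent in brainstem and spinal cord, had log2 fold changes between −0.18 and 0.28 over the 5 pairwise comparisons. The TPM ratio of Vamp2 to Vamp1 was 5.82 ± 1.25 in OVX Xmo, 5.51 ± 0.632 in OVX saline, 5.63 ± 0.980 in sham Xmo and 8.65 ± 2.98 in sham saline (SD). The groups overlapped in this ratio, whose lowest sham saline value was 5.93. Vamp3, a SNARE of constitutive traffic, lies wholly within the span of Camta1 on the same strand, so its 29.4 TPM is uncertain. Stx1a, the syntaxin of the release complex, was at 54.7 TPM and had its highest value, 75.2 scaled CPM, in OVX Xmo 1 and its lowest, 29.5, in sham saline 2.

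None of the 9 synaptotagmin and Doc2 genes, grouped here as calcium sensors, passed in any comparison. Syt1 had log2 fold changes of −0.21 in OVX saline and −0.31 in sham Xmo, each against sham saline, with edgeR adjusted p = 0.304 and 0.183. Syt11, a synaptotagmin that does not bind calcium, was the steadiest of the 50 genes, with a pooled within-group SD of 0.116 on the log2 scale and values between 569.5 scaled CPM in OVX Xmo 4 and 438 in sham saline 2. Syt7, a slow, high-affinity sensor, was at 255 scaled CPM in OVX Xmo 4 and between 366 and 536 in the 14 other libraries.

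Syt4, a synaptotagmin of dense-core vesicles, was the only one of the 50 with an unadjusted p under 0.05 in OVX Xmo against OVX saline. Its values were 120.4, 118, 124 and 184 scaled CPM in OVX Xmo 1 to 4, against 119, 113, 104 and 104 in OVX saline 1 to 4. OVX Xmo 4 lay far above the rest and the groups overlapped. The log2 fold change was 0.32 (SE 0.15; edgeR adjusted p = 0.998), and it was 0.14 without OVX Xmo 4. Syt2, the fast sensor of hindbrain and of some interneurons, ranged from 5.08 scaled CPM in OVX saline 4 to 38.8 in sham saline 3. Doc2a, a high-affinity calcium sensor of asynchronous release, overlaps Ino80e over 33% of its span, Syt2 overlaps Ppp1r12b over 6.85%, and no source used here says whether reads were counted by strand, so both are uncertain.

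None of the 3 complexins passed. Cplx1 and Cplx2, the main brain complexins, had log2 fold changes of −0.46 and −0.45 in sham Xmo against sham saline, with edgeR adjusted p = 0.140 and 0.0507. Cplx1 had 453, 553, 496 and 427 scaled CPM in OVX Xmo 1 to 4, 348, 322, 491 and 446 in OVX saline 1 to 4, 330.3, 449.6, 330.0 and 299.9 in sham Xmo 1 to 4, and 459, 482 and 509.7 in sham saline 1 to 3. All 4 sham Xmo values of Cplx1 lay below the 3 sham saline values, while sham Xmo 2 lay inside the OVX Xmo range. None of the 3 disassembly genes passed. Nsf, the ATPase that separates SNARE complexes, averaged 565 ± 30.2 scaled CPM in OVX Xmo, 517 ± 48.8 in OVX saline, 457 ± 25.6 in sham Xmo and 596 ± 119 in sham saline (SD). Napa, the alpha-SNAP adaptor, was 1 of 2 members with every OVX saline value above every sham saline value, together with Synpr, where 12.9% of all genes had that order (Napa log2 fold change 0.34, edgeR adjusted p = 0.0839). Its paralog Napb had a log2 fold change of −0.35 there (edgeR adjusted p = 0.339), with 259 and 292 scaled CPM in OVX saline 3 and 4 against 535 and 436 in OVX saline 1 and 2.

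Of the 3 synapsins that tether vesicles to each other and to actin, Syn1 alone passed. Syn1 (ENSMUSG00000037217, chrX:20860511-20921004, GRCm38.p6) had 452, 328, 449 and 379 scaled CPM in OVX Xmo 1 to 4. It had 316, 302, 345 and 361 scaled CPM in OVX saline 1 to 4, 258, 225, 285 and 302 in sham Xmo 1 to 4, and 545, 447 and 810.4 in sham saline 1 to 3. The sham saline values lay above those of both OVX saline and sham Xmo without overlap, and sham saline 2 (447.2) lay between the OVX Xmo values. The 4 sham Xmo values lay below the 4 OVX Xmo values.

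Syn1 fell by 0.86 on the log2 scale in OVX saline against sham saline (SE 0.17; edgeR adjusted p = 0.0171). It fell by 1.17 in sham Xmo against sham saline (SE 0.17; edgeR adjusted p = 0.0105). Its interaction was 1.45 (SE 0.24; edgeR adjusted p = 0.0304), made up of a xanthohumol log2 fold change of 0.28 in OVX mice and −1.17 in sham mice. It was −0.58 in OVX Xmo against sham saline (SE 0.17; edgeR adjusted p = 0.0935) and 0.59 in OVX Xmo against sham Xmo (SE 0.16; edgeR adjusted p = 0.315), neither of which passed.

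Syn2, the second brain synapsin, had log2 fold changes of 0.05 in OVX saline and −0.46 in sham Xmo, each against sham saline, with edgeR adjusted p = 0.917 and 0.293. The TPM ratio of Syn1 to Syn2 was 1.11 ± 0.120 in OVX Xmo, 1.00 ± 0.0708 in OVX saline, 1.23 ± 0.548 in sham Xmo and 1.88 ± 0.319 in sham saline (SD). All 3 sham saline ratios (1.52 to 2.09) lay above the ratios of every other library except sham Xmo 4 (2.05), which had the lowest Syn2 value of all 15 libraries (140.8 scaled CPM). Syn3 was at 10.8 TPM, and it shares 11.1% of its span with Timp3, which was counted at 97.3 CPM against 15.3 CPM for Syn3.

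The promoters of the called genes are shown because those genes moved in the same direction. The sequences are from RefSeq on GRCm38.p6 and cover the 250 bases before the start annotated in RefSeq, written 5′ to 3′ along the gene. For Syn1, Rab3a and Syp this start lies inside the gene span given here, so part of each of these windows lies within that span. The RefSeq table matched 39 of the 50 members, with 48 promoters, and Vamp2 was not matched. Capitals mark the motifs searched on both strands, which were TTCAGCACC (the left part of the RE1 element bound by the neuronal gene repressor REST), TGACGTCA (the cyclic AMP response element), GGGCGG (the GC box) and GGTCA followed by TGACC after any 3 bases (the core of the estrogen response element).
Syn1 promoter, chrX:20920919-20921168, minus strand: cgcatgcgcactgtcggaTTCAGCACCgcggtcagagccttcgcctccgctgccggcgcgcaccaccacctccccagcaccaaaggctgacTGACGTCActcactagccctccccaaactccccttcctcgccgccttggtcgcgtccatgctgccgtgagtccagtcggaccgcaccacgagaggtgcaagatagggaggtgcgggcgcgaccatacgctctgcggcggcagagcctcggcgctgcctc
Rab3a promoter, chr8:70754453-70754702, plus strand: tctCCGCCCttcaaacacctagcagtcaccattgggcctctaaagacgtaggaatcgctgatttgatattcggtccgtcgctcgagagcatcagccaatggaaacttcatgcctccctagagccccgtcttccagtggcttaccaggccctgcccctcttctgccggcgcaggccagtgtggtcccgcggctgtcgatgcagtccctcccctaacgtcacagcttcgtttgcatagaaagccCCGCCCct
Pclo promoter, chr5:14514668-14514917, plus strand: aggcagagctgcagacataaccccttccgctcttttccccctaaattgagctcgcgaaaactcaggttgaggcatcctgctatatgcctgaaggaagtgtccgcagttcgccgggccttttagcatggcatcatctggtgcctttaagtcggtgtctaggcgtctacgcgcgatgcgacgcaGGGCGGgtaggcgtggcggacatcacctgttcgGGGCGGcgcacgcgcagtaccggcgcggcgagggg
Synj1 promoter, chr16:91011309-91011558, minus strand: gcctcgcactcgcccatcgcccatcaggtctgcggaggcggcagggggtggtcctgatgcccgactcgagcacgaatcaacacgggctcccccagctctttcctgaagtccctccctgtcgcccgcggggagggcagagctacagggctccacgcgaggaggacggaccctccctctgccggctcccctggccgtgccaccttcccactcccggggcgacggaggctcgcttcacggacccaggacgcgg
Syp promoter, chrX:7638330-7638579, plus strand: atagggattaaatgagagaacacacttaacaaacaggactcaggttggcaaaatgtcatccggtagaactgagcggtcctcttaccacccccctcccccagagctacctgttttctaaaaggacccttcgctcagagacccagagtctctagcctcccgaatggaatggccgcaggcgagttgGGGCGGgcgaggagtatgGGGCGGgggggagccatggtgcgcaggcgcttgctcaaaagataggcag
The Syn1 promoter holds TTCAGCACC with its first base 232 bases before the start and TGACGTCA 159 bases before it. These motifs are in 0.301% and 1.55% of all 32851 promoters of that length, and each is in 2 of the 48 member promoters (4.17%). The other member with TTCAGCACC was Ppfia3 and the other with TGACGTCA was Sh3gl2, neither of which was called. Rab3a, Pclo and Syp hold 2 GC boxes each, a motif in 32.7% of all promoters and in 60.4% of the member promoters, whose median GC content was 61.6% against 52.4% for all. Both boxes of Syp, and the Rab3a box nearest the start, lie inside the gene span given here. The estrogen response element core is in 0.0639% of all promoters and in none of the 48 member promoters, and Synj1 holds none of the 4 motifs in this window. No motif matches overlapped each other, and a match describes letters in the window only.

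Of the 8 vesicle membrane proteins, Syp passed in 1 comparison. Syp, synaptophysin (ENSMUSG00000031144, chrX:7638471-7653256, GRCm38.p6), had 760.1, 693.5, 735 and 709 scaled CPM in OVX Xmo 1 to 4. It had 627, 567, 692 and 704.5 scaled CPM in OVX saline 1 to 4, 529, 639.7, 593.5 and 527 in sham Xmo 1 to 4, and 749, 725.5 and 922 in sham saline 1 to 3. The sham saline values lay above those of OVX saline and sham Xmo without overlap, and overlapped those of OVX Xmo. Syp fell by 0.48 on the log2 scale in sham Xmo against sham saline (SE 0.11; edgeR adjusted p = 0.0401), and its log2 fold change in OVX saline against sham saline was −0.30 (edgeR adjusted p = 0.101).

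Syngr1, synaptogyrin 1, had the second smallest p of the 50 in OVX Xmo against sham Xmo, where none passed. It had 289, 253, 270.0 and 236 scaled CPM in OVX Xmo 1 to 4, against 169.9, 195, 191 and 182 in sham Xmo 1 to 4. The groups did not overlap, and the log2 fold change was 0.51 (SE 0.14; edgeR adjusted p = 0.315). Syngr3, its paralog, had a log2 fold change of 0.36 there (edgeR adjusted p = 0.468). Slc17a7, the vesicular glutamate transporter VGLUT1, was between 394 and 643 scaled CPM in the 12 OVX and sham Xmo libraries, against 478, 330.4 and 1240.0 in sham saline 1 to 3. Its log2 fold changes against sham saline were −0.28 in OVX saline and −0.59 in sham Xmo (edgeR adjusted p = 0.619 and 0.322). The SV2 family, the binding partners of levetiracetam (Sv2a) and relatives, had log2 fold changes between −0.32 and 0.34 over the 5 pairwise comparisons, and none passed.

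**Figure D4:**
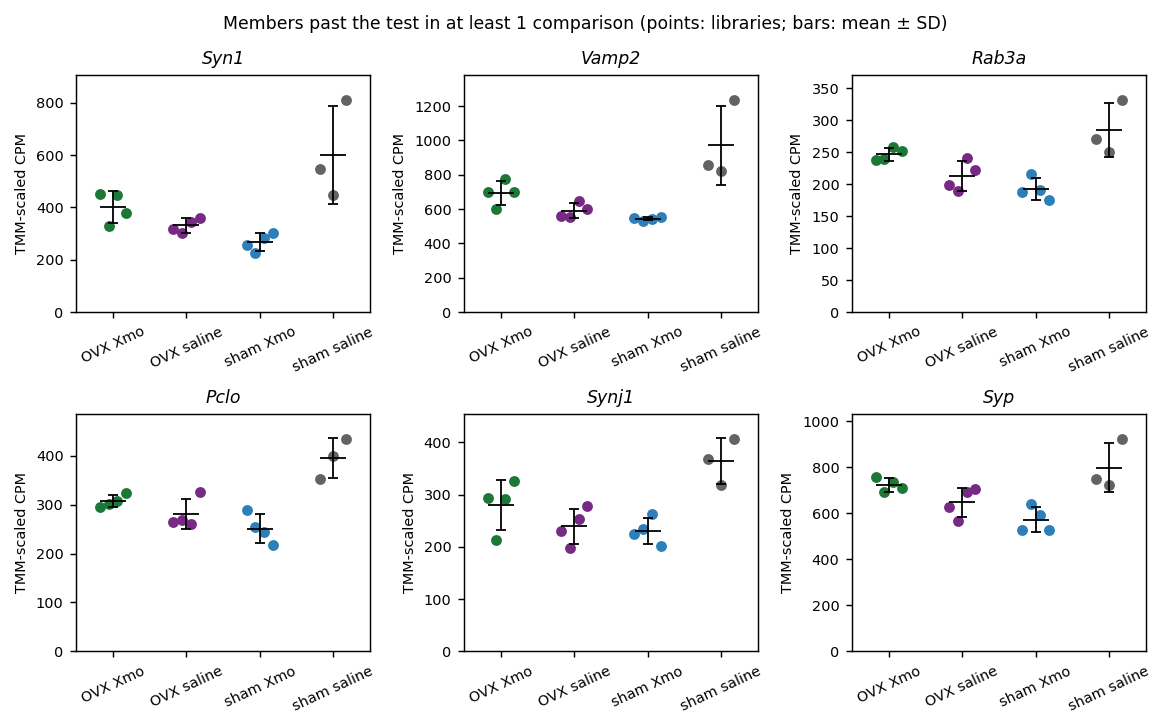
TMM-scaled CPM (y axis) of the 6 genes past the test in at least 1 comparison, by group. Points are libraries and bars are mean ± SD. On this scale the sham saline mean is the highest and the sham Xmo mean the lowest in each panel, which does not hold for all 6 genes in TPM. For Vamp2 and Pclo all sham saline points lie above all others.

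Of the 14 priming and active zone genes, Rab3a and Pclo passed. Rab3a, the vesicle GTPase that recruits RIM (ENSMUSG00000031840, chr8:70754679-70758677, GRCm38.p6), had 238, 239, 258 and 252 scaled CPM in OVX Xmo 1 to 4. It had 199, 189, 242 and 223 scaled CPM in OVX saline 1 to 4, 188, 216, 191 and 175 in sham Xmo 1 to 4, and 271, 251 and 332 in sham saline 1 to 3. The sham saline values lay above those of OVX saline and sham Xmo, the OVX Xmo values lay above those of sham Xmo, and sham saline 2 lay within OVX Xmo. Rab3a fell by 0.42 on the log2 scale in OVX saline against sham saline (SE 0.11; edgeR adjusted p = 0.0386) and by 0.57 in sham Xmo against sham saline (SE 0.11; edgeR adjusted p = 0.0256). The call in OVX saline passed in 5 of 15 alternative settings, with edgeR adjusted p = 0.0701 when the 2 groups were fitted alone. Its interaction was 0.78 (SE 0.15; edgeR adjusted p = 0.0410). For OVX Xmo its log2 fold change was 0.36 against sham Xmo (SE 0.10; edgeR adjusted p = 0.315) and 0.21 against OVX saline (SE 0.10; edgeR adjusted p = 0.998).

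Pclo, the active zone scaffold Piccolo (ENSMUSG00000061601, chr5:14514918-14863459, GRCm38.p6), had 296, 302, 308 and 323.5 scaled CPM in OVX Xmo 1 to 4. It had 265, 269, 260.4 and 326 scaled CPM in OVX saline 1 to 4, 288, 254, 244 and 218 in sham Xmo 1 to 4, and 352, 398 and 433 in sham saline 1 to 3. Every sham saline value lay above all 12 other values, and OVX saline 4 lay apart from the rest of its group. Pclo fell by 0.49 on the log2 scale in OVX saline against sham saline (SE 0.11; edgeR adjusted p = 0.0219) and by 0.65 in sham Xmo against sham saline (SE 0.11; edgeR adjusted p = 0.0178). Its interaction was 0.79 (SE 0.15; edgeR adjusted p = 0.0410), and its log2 fold change in OVX Xmo against sham saline was −0.36 (SE 0.11; edgeR adjusted p = 0.0954).

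Rab3c, a paralog of Rab3a, had 527, 607.5, 577 and 682 scaled CPM in OVX Xmo 1 to 4, against 478, 389, 514 and 566 in OVX saline 1 to 4. The groups overlapped, and the log2 fold change of 0.30 did not pass (SE 0.15; edgeR adjusted p = 0.998). The TPM ratio of Rab3a to Rab3c averaged 2.57 in OVX Xmo, 2.73 in OVX saline, 2.54 in sham Xmo and 2.84 in sham saline, with SDs of 0.233 to 0.692. Bsn, Bassoon, the partner scaffold of Piccolo, had log2 fold changes of −0.17 in OVX saline and −0.58 in sham Xmo, each against sham saline (edgeR adjusted p = 0.630 and 0.138).

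The most variable of the 50 genes was Unc13c, Munc13-3, known from cerebellar granule cells. It had 46.8, 98.4, 47.7 and 45.1 scaled CPM in OVX Xmo 1 to 4, 26.5, 24.1, 53.4 and 47.1 in OVX saline 1 to 4, 50.8, 59.6, 19.6 and 23.7 in sham Xmo 1 to 4, and 49.4, 172 and 60.6 in sham saline 1 to 3. The highest library was 8.74 times the lowest, and all groups overlapped. Its log2 fold changes of −1.31 in OVX saline and −1.29 in sham Xmo, each against sham saline, were the largest of the 50 and did not pass (edgeR adjusted p = 0.105 and 0.163). Unc13a, Munc13-1, the main priming factor, had log2 fold changes of 0.27 and 0.09 there (edgeR adjusted p = 0.220 and 0.766). The scaffolds Rims1, Rims2, Erc1, Erc2, Ppfia2 and Ppfia3 lay between −0.27 and 0.29 in the 5 pairwise comparisons, and none passed.

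Of the 5 endocytosis genes, Synj1 passed. Synj1, the lipid phosphatase synaptojanin 1 that uncoats vesicles (ENSMUSG00000022973, chr16:90936092-91011308, GRCm38.p6), had 293, 213, 291 and 326 scaled CPM in OVX Xmo 1 to 4. It had 231, 199, 253 and 277 scaled CPM in OVX saline 1 to 4, 225, 234, 262 and 201 in sham Xmo 1 to 4, and 368, 318 and 406 in sham saline 1 to 3. The sham saline values lay above those of OVX saline and sham Xmo without overlap, and 1 OVX Xmo library (326) exceeded sham saline 2. Synj1 fell by 0.60 on the log2 scale in OVX saline against sham saline (SE 0.15; edgeR adjusted p = 0.0301) and by 0.66 in sham Xmo against sham saline (SE 0.15; edgeR adjusted p = 0.0394), and its interaction of 0.89 did not pass (edgeR adjusted p = 0.0602). Dnm1, the fission GTPase dynamin 1, had 651, 514, 606 and 528 scaled CPM in OVX Xmo 1 to 4 against 389, 378, 439.8 and 496 in sham Xmo 1 to 4. These did not overlap, and the log2 fold change was 0.43 (edgeR adjusted p = 0.332). Sh3gl2, endophilin A1, was at 231 scaled CPM in sham Xmo 1 and at 61.1 to 106 in the 14 other libraries.

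**Figure D5:**
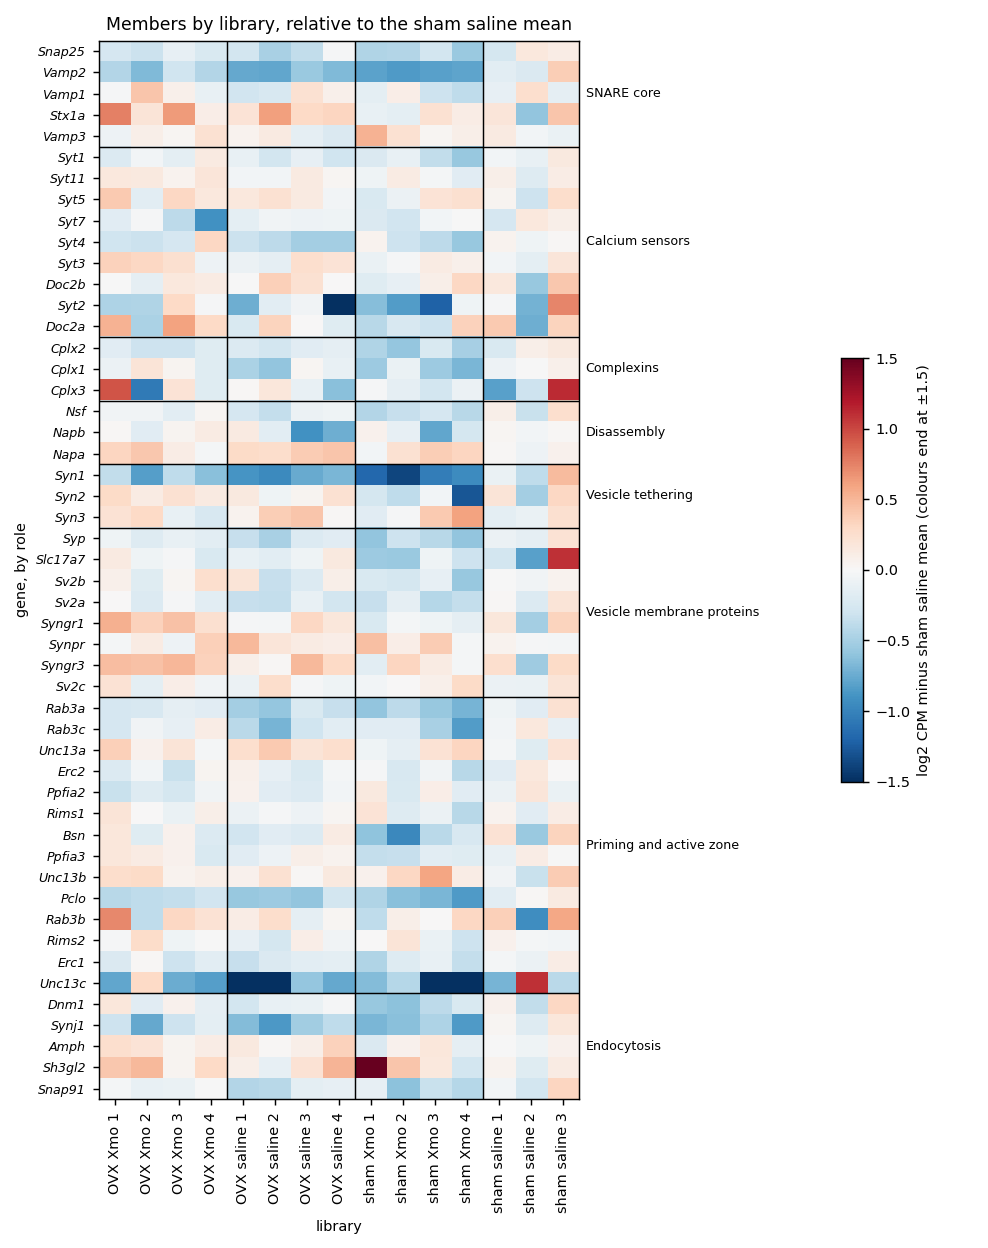
Log2 CPM of each gene in each library minus the gene's sham saline mean, with libraries as columns and genes as rows by role. Colours end at ±1.5. The rows of Vamp2, Syn1 and Pclo are blue in all 12 libraries outside sham saline, while rows such as Syt11 and Amph stay near white.

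The calls in OVX saline against sham saline changed with single libraries. In that comparison 34 of the 50 log2 fold changes were below 0, where 49.5% of all genes were, and 10 of the 50 had every OVX saline value below every sham saline value, where 11.6% of all genes did. None of the 50 passed without sham saline 3, 2 passed without OVX saline 1, OVX saline 2 or sham saline 2 (Syn1 and Vamp2 each time), 3 without OVX saline 3 or sham saline 1, and 4 without OVX saline 4. Calls over all genes changed with the same omissions, from 1246 with all libraries to between 80 (without sham saline 3) and 978. Over 15 alternative settings Syn1 and Vamp2 passed in 13 each, Synj1 in 8, Pclo in 7 and Rab3a in 5. With the mitochondrial share of each library as a covariate, a setting chosen after seeing the data, none passed (edgeR adjusted p of the 5 genes 0.168 to 0.495). Their log2 fold changes then ran from −1.24 to −0.37, and the part of the mitochondrial share in the calls cannot be told apart from that of surgery.

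In sham Xmo against sham saline, 39 of the 50 log2 fold changes were below 0, where 46.6% of all genes were. Of the 50, 12 had every sham Xmo value below every sham saline value, where 5.33% of all genes did, and 0 had the opposite order, where 8.89% did. Only Syn1 and Vamp2 passed without sham Xmo 3 or without sham saline 3, 3 passed without sham Xmo 4, 5 without sham Xmo 1 or sham Xmo 2, 7 without sham saline 1 and 9 without sham saline 2. Over all genes 302 passed with all libraries, 14 without sham saline 3, 27 without sham Xmo 3 and up to 673 in the other omissions. With the mitochondrial share as a covariate Syn1 and Vamp2 passed, Rab3a, Pclo, Synj1 and Syp did not (edgeR adjusted p 0.0672 to 0.125), and Bsn and Dnm1 passed in that setting. With the 7 libraries of the comparison fitted alone 0 of the 50 passed (edgeR adjusted p of the 6 genes 0.140 to 0.197) and 6 of all genes did.

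Between the groups given xanthohumol, 9 of the 50 log2 fold changes of OVX Xmo against sham Xmo were below 0, where 52.8% of all genes were. The 18 members with an unadjusted p under 0.05 were all higher in OVX Xmo. In 12 members every OVX Xmo value exceeded every sham Xmo value, where 2.89% of all genes had that order. The 12 were Syn1, Syn2, Vamp2, Syp, Syngr1, Syngr3, Rab3a, Nsf, Bsn, Pclo, Dnm1 and Snap91, and none had the opposite order, where 2.99% of all genes did. Of 81 other vesicle cycle genes, described below, 18 lay above sham Xmo without overlap and 1 below. Of 20 general neuronal markers, also described below, 4 lay above and 0 below. The smallest edgeR adjusted p among the 50 was 0.315. Mitochondrial shares overlapped between these groups, at 12.4 to 16.5% in OVX Xmo and 14.3 to 19.2% in sham Xmo. All 10 choroid plexus markers had log2 fold changes below 0 between these groups (median −1.97), 7 with an unadjusted p under 0.05 and 0 past the edgeR test, and they summed to 81.2 to 1794 scaled CPM in OVX Xmo and 128 to 8500.4 in sham Xmo. Of 10 oligodendrocyte markers 9 were below 0 (median −0.36), 5 with an unadjusted p under 0.05 and 0 past the test, and they summed to 3379 to 5071 scaled CPM in OVX Xmo and 4122 to 6275 in sham Xmo. Of all genes 10.2% had an unadjusted p under 0.05 in this comparison. The part of either marker list in the difference was not tested.

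Between the OVX groups, 10 of the 50 log2 fold changes of OVX Xmo against OVX saline were below 0, where 49.1% of all genes were. Only Snap91, the clathrin adaptor AP180, had every OVX Xmo value above every OVX saline value, at 186, 176, 177 and 189 scaled CPM in OVX Xmo 1 to 4 against 140.1, 142, 171 and 174 in OVX saline 1 to 4. Of all genes 1.39% had that order, and none of the 50 had the opposite one, where 1.72% of all genes did. Its log2 fold change of 0.21 did not pass (edgeR adjusted p = 0.998).

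The interaction was below 0 in 11 of the 50, where it was in 52.3% of all genes, and its calls depended on single libraries. None of the 50 passed without OVX Xmo 3, OVX Xmo 4, OVX saline 1, OVX saline 2 or sham Xmo 3, and 1 passed without sham Xmo 4 (Syn1). Between 2 and 5 passed without each of the remaining libraries other than sham saline 2, and 10 passed without sham saline 2. Over all genes 83 passed with all libraries, 6 to 9 in the 5 omissions that left none of the 50, 255 without sham saline 2 and up to 302 in the others. The interaction of Syn1 ranged from 1.17 to 1.63 over the 15 omissions and that of Vamp2 from 0.86 to 1.19.

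Among 84 other genes of the vesicle cycle, 81 passed the filter on low counts. In OVX saline against sham saline 4 of the 81 fell and 1 rose, where 2.59% of all genes fell and 3.65% rose, and their median log2 fold change was −0.05. In sham Xmo against sham saline 3 fell and 0 rose, where 0.791% of all genes fell and 0.721% rose, with a median of −0.06.

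Sncb, beta-synuclein, averaged 124 ± 12.4 scaled CPM in OVX saline against 208 ± 55.0 in sham saline, and fell by 0.75 on the log2 scale there (edgeR adjusted p = 0.0177) and by 0.88 in sham Xmo against sham saline (edgeR adjusted p = 0.0188). Sgip1, an endocytic adaptor, fell by 0.52 in OVX saline (edgeR adjusted p = 0.0265) and by 0.69 in sham Xmo (edgeR adjusted p = 0.0188), each against sham saline. The interactions of Sncb (1.23; edgeR adjusted p = 0.0331) and Sgip1 (0.81; edgeR adjusted p = 0.0446) passed too. Clta, clathrin light chain A, rose by 0.52 in OVX saline against sham saline, with 126 ± 12.2 scaled CPM in OVX saline against 87.9 ± 0.533 in sham saline (edgeR adjusted p = 0.0251). In OVX saline against sham saline, none of Sncb, Sgip1 and Clta passed without sham saline 3, and Sncb passed without each of the other 6 libraries. Between OVX Xmo and OVX saline 0 of the 81 passed in edgeR and 5 had an unadjusted p under 0.05, where 4.18% of all genes did. In OVX Xmo against sham Xmo 0 passed and 22 had one, where 10.2% of all genes did.

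Of 20 general neuronal markers, 3 fell, 1 rose and 16 did not pass in OVX saline against sham saline, where 2.59% of all genes fell and 3.65% rose. The median log2 fold change of the 20 was −0.15. With an unadjusted p under 0.05, 8 of the 20 were lower and 2 higher, where 24.7% of all genes had one in either direction. Without overlap 7 lay below sham saline and 1 above, where 11.6% and 12.9% of all genes did. In sham Xmo against sham saline 3 fell, 0 rose and 17 did not pass, where 0.791% of all genes fell and 0.721% rose, with a median of the 20 of −0.26. There 10 of the 20 were lower and 0 higher with an unadjusted p under 0.05, where 18.4% of all genes had one in either direction. Without overlap 6 lay below sham saline and 0 above, where 5.33% and 8.89% of all genes did. Between OVX Xmo and sham Xmo the median of the 20 was 0.23 with 0 past the test. In the interaction 1 was higher, where 0.27% of all genes were, and the median of the 20 was 0.42. There 10 of the 20 were higher and 0 lower with an unadjusted p under 0.05, where 17.4% of all genes had one in either direction. Of the 50 release genes 20 were higher and 1 lower with one, and their median was 0.39. The summed level of the 20 was 11986 to 13829.9 scaled CPM in OVX Xmo, 12031 to 12738 in OVX saline, 11499 to 13479 in sham Xmo and 13145 to 15482 in sham saline. All 3 sham saline sums lay above those of OVX saline, and sham Xmo and OVX Xmo reached into the sham saline range. Meg3 and Snhg11 weigh most in these sums, at 102484 to 206597 and 45934 to 102125 counts a library. Map2 came next, at 26164 to 53160. The part of the 20 markers in the release gene differences was not tested.

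The other marker lists also held calls. Of 10 endothelial markers 3 fell in OVX saline, where 2.59% of all genes did, and 1 in sham Xmo, where 0.791% did, each against sham saline. Their median log2 fold changes there were −0.43 and −0.34. In OVX saline 7 of the 10 were lower with an unadjusted p under 0.05, where 24.7% of all genes had one in either direction. In sham Xmo 5 were lower and 1 higher with one, where 18.4% of all genes had one. The endothelial markers summed to 246 to 269 scaled CPM in OVX Xmo, 228 to 255 in OVX saline, 259 to 291 in sham Xmo and 278 to 384 in sham saline. Of 10 astrocyte markers 2 rose and 1 fell in OVX saline, and of 10 microglia markers 2 rose, where 3.65% of all genes rose and 2.59% fell. Oligodendrocyte markers gave 1 call in sham Xmo, which was higher, where 0.721% of all genes were. In the interaction 0 of these 10 passed and their median was −0.46. There 5 were lower with an unadjusted p under 0.05, where 17.4% of all genes had one in either direction. Dentate granule markers gave 1 higher call in OVX saline, where 3.65% of all genes were higher, and 1 lower in the interaction, where 0.145% were lower. The choroid plexus, pyramidal, interneuron, thalamus and habenula, and neocortical layer lists gave no edgeR call in any comparison. All 10 choroid plexus markers had log2 fold changes below 0 in OVX saline (median −1.41) and above 0 in sham Xmo (median 1.39), each against sham saline. In each, 1 of 10 had an unadjusted p under 0.05, where 24.7% and 18.4% of all genes did. The choroid plexus markers summed to 82.4 to 471 scaled CPM in OVX saline and 207 to 1276 in sham saline, and the groups overlapped.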

How the data were processed

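RNA was sequenced from 15 hippocampus libraries. Per the labels' protocols, total RNA was made into TruSeq libraries. Build GRCm38.p6, Bowtie2 2.3.2, StringTie 1.3.3b, Trimmomatic 0.36 and FastQC 0.11.2 are named, with no role for any, per the submitters' processing notes. The deposited table holds whole-number read counts per gene, which the authors did not normalize, per the file headers and the values. It also holds TPM and FPKM values that the authors computed from the same libraries, per the file headers. TPM served to compare levels between genes, and FPKM served to derive the gene lengths for 1 alternative. A further 12 per-sample columns match no sample and were not used.

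The counts were filtered with edgeR's filterByExpr by group and scaled by TMM factors. Each gene was fitted with edgeR's quasi-likelihood model on 4 group means, with 11 residual degrees of freedom. Adjusted p-values are Benjamini-Hochberg over 19969 genes. Scaled CPM use the TMM-scaled library size. Replicates differed beyond sampling noise. The fit was tested on simulated data. Alternatives were DESeq2, other scaling factors, no filter, a length correction, a replicate block, the compared groups alone, each library left out, and the mitochondrial share as a covariate.

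The members and lists were chosen with earlier results of these data known. By rule, members past the test are given in full, the 3 with the smallest p are named where none passed, and up to 3 per role are named by level; others named were chosen after their values were seen. Other vesicle cycle genes are named at most 5 up and 5 down per comparison. Some of their results are not reported here. Software versions were DESeq2 1.42.0 and limma 3.58.1, edgeR 4.0.16 and R 4.3.3.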

Additional observations from a re-analysis of the deposited data

Results flagged for a closer look

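The lowest and highest library of each group of 4 were examined. In 4 of 150 gene and group combinations 1 lay far from the rest, the highest each time, and chance flags about 1 in 20. The sham saline group, with 3 libraries, was not examined in this way. Syt4 was at 183.56 scaled CPM in OVX Xmo 4, where the others of its group were between 118 and 124. Rims2 was at 59.6446 scaled CPM in OVX Xmo 2, with the others between 47.2 and 48.9. Unc13c was at 98.4248 scaled CPM in OVX Xmo 2, with the others between 45.1 and 47.7. Pclo was at 325.726 scaled CPM in OVX saline 4, with the others between 260.4 and 269.

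The effect of xanthohumol differed between OVX and sham mice by the interaction test in 4 of the 50 genes, all higher, where 0.27% of all genes were higher and 0.145% lower. With single libraries left out, 0 to 10 of the 50 passed. Over 22 alternative settings Syn1 passed in 17, Vamp2 in 16, Rab3a in 10 and Pclo in 9. The differences in log2 fold change were 1.44786 for Syn1, 1.07114 for Vamp2, 0.776871 for Rab3a and 0.786494 for Pclo (edgeR adjusted p = 0.0304, 0.0304, 0.0410 and 0.0410). The sham saline libraries, whose mitochondrial share was 25.8% ± 7.70 (SD, n = 3), enter each of these values, and the part of that share was not tested beyond the covariate fit.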

How the results depend on the processing

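Syn1, Vamp2, Rab3a, Pclo, Synj1, Syp, Sncb, Sgip1, Clta, Syt4, Rab3c and Syngr1 kept their direction in each setting run for the comparisons in which they are described as past the test or, for the last 3, as closest to it. The median log2 fold change of the 50 genes in OVX Xmo against sham saline, −0.01138, was 0.004641 without the filter on low counts, 0.003904 with a replicate block, 0.02641 with the length correction and −0.05944 to 0.08377 with single libraries left out. The count of the 50 genes past the test in OVX saline against sham saline was 5, and it was 3 with a replicate block (Syn1, Vamp2 and Synj1), 0 with the mitochondrial share as a covariate and 0 to 4 with single libraries left out. In sham Xmo against sham saline it was 6, and it was 2 with the replicate block (Syn1 and Vamp2), 11 in DESeq2, 0 with the 2 groups fitted alone and 2 to 9 with single libraries left out. In OVX Xmo against sham saline it was 0, and 3 in DESeq2. In the interaction it was 4, and it was 2 without the filter, 2 with the replicate block, 7 with the covariate, 9 in DESeq2 and 0 to 10 with single libraries left out. Calls over all genes with the replicate block, with the covariate and in DESeq2 are given below. DESeq2 gave an adjusted p to 15308 genes in OVX Xmo against sham saline, where edgeR tested 19969. Counts from the 2 methods there rest on different numbers of genes. With the covariate, the median log2 fold change of the 50 genes was −0.2258 in OVX saline and −0.1611 in OVX Xmo, each against sham saline. Their summed share was 2.014% in OVX Xmo, 1.906% in OVX saline, 1.732% in sham Xmo and 2.074% in sham saline with mitochondrial genome features left out of the total. The cause of these changes was not tested.

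Over all genes, the 1246 calls in OVX saline against sham saline were 6 with the covariate, 178 with the replicate block, 568 without the filter and 2322 in DESeq2. The 302 in sham Xmo against sham saline were 6 with the 2 groups alone, 37 with the replicate block, 108 without the filter, 118 with the covariate and 1117 in DESeq2, and with the length correction 92 were higher and 171 lower, against 144 and 158. The 237 in OVX Xmo against sham saline were 2 with the replicate block, 4 with the 2 groups alone, 5 with the covariate, 56 without the filter and 1087 in DESeq2, and 119 higher and 112 lower with the length correction, against 149 and 88. The 83 of the interaction were 11 with the replicate block, 20 without the filter, 156 with the covariate and 824 in DESeq2.

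Whether replicate numbers paired the libraries could not be settled, since the deviations compared were taken from means of 3 or 4 libraries. Deviations of the 21 same-numbered pairs correlated between −0.215 and 0.186, and 2 were over 0.1. Those of the 63 other pairs between groups correlated between −0.190 and 0.261, and 11 were over 0.1. With 3 or 4 libraries a group, small differences in the low genes such as Cplx3 and Doc2a were not detectable at this spread.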
